A study of Mus musculus with 18 samples.

Results

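Malat1 and Neat1 are long noncoding RNAs that stay in the nucleus and are transcribed from neighboring genes on mouse chromosome 19. They were taken as all rows of the RibOxi-seq count table that carry either gene name, which gave 2 of 19749 genes and 3429 of 1825851 positions. RibOxi-seq maps 2′-O-methylation, a methyl group on the ribose of a nucleotide. RNA is cut at random, the fragments are oxidized so that those ending in an unmethylated ribose cannot be ligated, and the 3′ ends of the surviving fragments are counted at each genomic position. The cells were 4T1, a mouse mammary carcinoma line, here carrying a lentiviral construct for mCherry and Renilla luciferase and kept under puromycin, and these features were shared by every group. The 3 genotypes were 4T1 WT, Snord67KO-1 and Snord67KO-2, with 3 oxidized libraries each. Each knockout is a single-cell clone made with Cas9 against Snord67, a small nucleolar RNA that guides 2′-O-methylation of position C60 of the U6 spliceosomal RNA, so that an effect of the deletion and a property of the clone cannot be told apart. The 9 control samples without oxidation were not analysed here.

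Malat1 is retained in nuclear speckles, the domains in which splicing factors gather. Its primary transcript is cut by RNase P, which leaves a mature 3′ end closed by a triple helix in place of a poly(A) tail. Neat1 is the scaffold of the paraspeckle, a nuclear body built around its long isoform. Its short isoform ends at a poly(A) site near the 5′ end of the gene and is polyadenylated, whereas the long isoform is cut by RNase P. The libraries were made from poly(A)-selected RNA, so the counts come from molecules that were kept by that selection. The comparison of the knockout clones with 4T1 WT asked whether the counts on these nuclear RNAs, or any single position in them, depended on Snord67.

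In the GENCODE M21 annotation of the GRCm38 build, Malat1 (ENSMUSG00000092341.3) lies on the minus strand at chr19:5795690-5802672, and its transcript ENSMUST00000172812.2 is a single exon of 6983 bases. Neat1 (ENSMUSG00000092274.3) lies on the same strand at chr19:5824708-5845478, and its long isoform ENSMUST00000173672.1 is a single exon of 20771 bases. The short isoform Neat1-202 covers chr19:5842307-5845476 and ends 3172 bases from the 5′ end of the long one. Neither RNA has a coding sequence or an intron in these transcripts, so each position lay in a noncoding exon. The table does not give the strand, and 168 Malat1 counts, 5.52% of the gene, lay over the antisense transcript Gm37376 (chr19:5801941-5802393) and cannot be assigned to one strand.

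The sequences below are the 3 positions with most counts in each RNA among those that the authors' table marks as mispriming. Each gives the RNA as DNA letters, 5′ to 3′, from GENCODE M21 on GRCm38. The capital is the nucleotide at which the read 3′ ends were counted, with the 12 bases before and after it. The number in each name is the distance in bases from the 5′ end of the RNA, counted from 1.

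Malat1-3311 (chr19:5799362): aaccttttttttTctgtagaccttt
Malat1-5873 (chr19:5796800): cagcggagccttCctgtgtggcaag
Malat1-3922 (chr19:5798751): tttccaaaaagaCctgtagagctgt
Neat1-2035 (chr19:5843444): cttgggaataatActtttggcacca
Neat1-3063 (chr19:5842416): aatgtgaagaaaGctgtaactgcag
Neat1-1360 (chr19:5844119): gatgcatgaatgGcagcaggcaccc

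All 6 were chosen because they carry that mark, so the mark is not a result about them. Malat1-3922 had 11 counts, fewer than the 15 of the unmarked Malat1-843. What the mark was computed from is not given in the sources used here. The positions with the most counts that are not marked are shown next. Among them, Malat1-3310 and Neat1-3061 lie close beside the marked Malat1-3311 and Neat1-3063, so they are not separate from those positions.

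Malat1-843 (chr19:5801830): gacagaaaaggtActtaaaggcaca
Malat1-3310 (chr19:5799363): aaacctttttttTtctgtagacctt
Malat1-821 (chr19:5801852): agaagacaaagcAtctttagaagac
Neat1-1497 (chr19:5843982): gacactttaacgTctgcgcagcgtg
Neat1-3061 (chr19:5842418): gaaatgtgaagaAagctgtaactgc

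Over all genes, the 6 bases that followed a marked position had the consensus ctgtag, computed from 39913 marked positions that could be placed in a transcript. At least 4 of these 6 bases followed 34 of the 35 marked positions of Malat1 (97.1%) and all 26 of those of Neat1. They followed 3.52% of the unmarked Malat1 positions and 4.26% of the unmarked Neat1 positions, against 4.23% and 4.59% of all bases of the respective RNA. Malat1-3311 and Malat1-3922 were followed by the complete consensus, Neat1-3063 by 5 of its bases, and Malat1-5873, Neat1-2035 and Neat1-1360 by 4. The linker ligated to the 3′ ends of the fragments, as the paper lists it, begins with the same 6 bases as the consensus. Whether the mark was computed from this match was not tested, so the match may be part of how the mark was made. The gene totals and levels of both RNAs are given with and without the marked positions.

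Both RNAs were readily detected, and Malat1 had the more counts. The counts and CPM of a gene are not corrected for the length of its RNA, and they count protected 3′ ends, not RNA molecules. The libraries held between 212463 and 737219 counts. Malat1 received 410, 439 and 360 counts in the 4T1 WT libraries, 411, 322 and 497 in Snord67KO-1, and 119, 215 and 273 in Snord67KO-2. Snord67KO-2 had the lowest raw counts, and its libraries were also the shallowest, with at most 423278 counts. As counts per 1000000 counts of the library (CPM), Malat1 stood at 556, 687 and 576 in 4T1 WT, 610, 655 and 724 in Snord67KO-1, and 560, 583 and 645 in Snord67KO-2, so the 3 groups overlapped. By counts it ranked between 57 and 92 among the genes of a library.

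Neat1 received 174, 252 and 89 counts in 4T1 WT, 139, 104 and 140 in Snord67KO-1, and 46, 96 and 133 in Snord67KO-2. In CPM these were 236, 394 and 142 in 4T1 WT, 206, 211 and 204 in Snord67KO-1, and 217, 260 and 314 in Snord67KO-2. Replicate 2 of 4T1 WT was the highest of the 9 libraries and replicate 3 the lowest, and every knockout library lay between them. Its rank ran from 155 to 306. Malat1 had more counts than Neat1 in each of the 9 libraries, by a factor of 1.74 to 4.04.

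Marked positions held a larger share of the counts of Neat1 than of Malat1. Of the 3046 Malat1 counts, 219 (7.19%) lay at marked positions, and of the 1173 Neat1 counts, 262 (22.3%) did. In Neat1 the share was 19.5%, 59.9% and 7.87% in the 4T1 WT libraries, 17.3%, 23.1% and 2.86% in Snord67KO-1, and 4.35%, 5.21% and 8.27% in Snord67KO-2. Malat1 had 8.54%, 23.0% and 1.94% in 4T1 WT, 5.35%, 9.32% and 0.604% in Snord67KO-1, and 2.52%, 3.72% and 3.66% in Snord67KO-2. Over all genes the share at marked positions was 17.8% in replicate 2 of 4T1 WT and between 1.38% and 7.22% in the other libraries, so this library stood apart in the whole table and not only in these RNAs. The mean share in 4T1 WT was 11.2% ± 10.8 (SD, n = 3) for Malat1 and 29.1% ± 27.3 (SD, n = 3) for Neat1, against 4.20% ± 2.96 and 10.2% ± 8.16 (SD, n = 6) in the knockouts. These differences did not pass a two-sided exact permutation test (p = 0.262 and 0.214, both 0.327 after Benjamini-Hochberg adjustment over the 5 shares and ratios tested). Most of the difference came from replicate 2 of 4T1 WT. With it, the knockout mean minus that of 4T1 WT was -6.97 percentage points for Malat1 and -18.9 for Neat1, and without it -1.04 and -3.53.

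**Figure D1:**
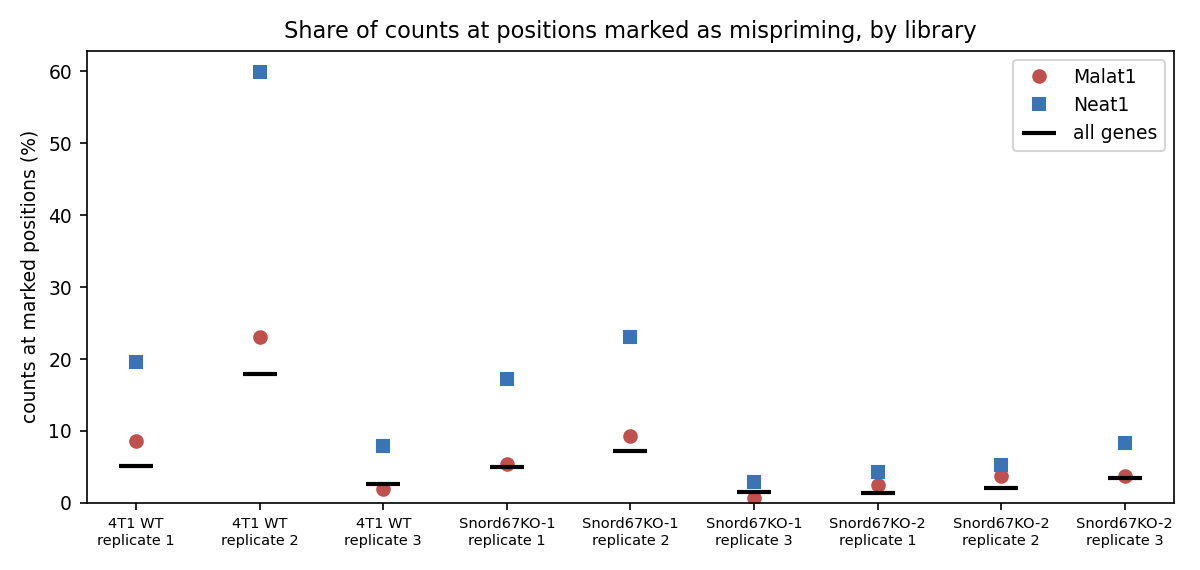
Percent of counts at positions marked as mispriming (vertical axis) in each of the 9 oxidized libraries (horizontal axis), for Malat1 (circles), Neat1 (squares) and all genes (bars). Replicate 2 of 4T1 WT reached 59.9% for Neat1 and 23.0% for Malat1, and the Neat1 share lay above the share over all genes in every library.

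Without the marked positions, Malat1 stood at 509, 529 and 565 CPM in 4T1 WT, 577, 594 and 719 in Snord67KO-1, and 546, 561 and 621 in Snord67KO-2. These CPM still divided by all counts of a library, marked ones included. Marked counts made up 17.8% of replicate 2 of 4T1 WT and 1.38% to 7.22% of the other libraries. Relative to unmarked totals, this replicate was therefore lowered most. On this scale the SD among the 4T1 WT libraries was 28.4 CPM, against 70.6 over all positions. How much of that change came from the denominator was not tested. Neat1 stood at 190, 158 and 131 CPM in 4T1 WT, 171, 163 and 198 in Snord67KO-1, and 207, 247 and 288 in Snord67KO-2. All 3 Snord67KO-2 libraries then lay above all libraries of 4T1 WT and of Snord67KO-1, while 4T1 WT and Snord67KO-1 overlapped. The lowest Snord67KO-2 library stood at 207 CPM and the highest of the other libraries at 198. The share of all genes that separate in this way was not computed. The unmarked Neat1 mean was 160 ± 29.4 CPM in 4T1 WT, 177 ± 18.5 in Snord67KO-1, and Snord67KO-2 had 247 ± 40.6 (SD, n = 3 each). Marked counts made up 2.57% to 17.8% of the 4T1 WT libraries and 1.38% to 3.46% of the Snord67KO-2 libraries. The denominator therefore lowered the 4T1 WT mean more, and relative to unmarked totals the gap between these 2 means is overstated.

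**Figure D2:**
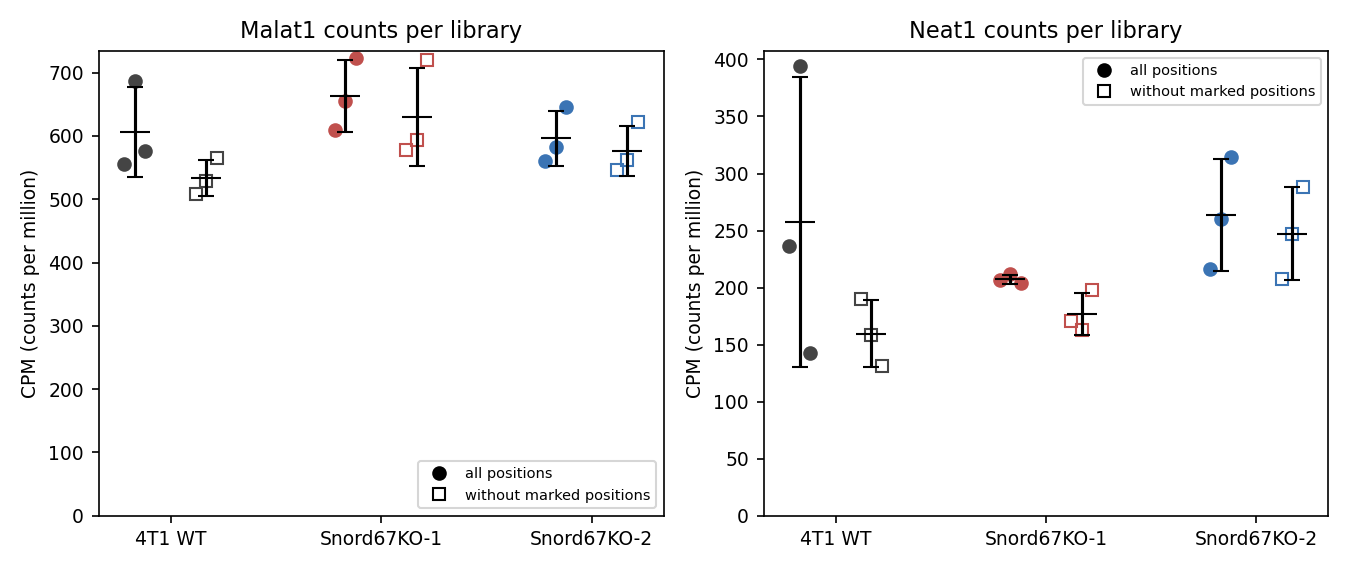
CPM of Malat1 (left) and Neat1 (right) in each library, by genotype, over all positions (filled circles) and without the marked positions (open squares), with the group mean and SD (n = 3) in black. Leaving out the marked positions lowered the 4T1 WT mean of Neat1 from 258 to 160 CPM and its Snord67KO-2 mean from 264 to 247 CPM. All CPM divide by all counts of a library, marked ones included.

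Gene totals were tested with edgeR's quasi-likelihood test over 6535 genes, with Benjamini-Hochberg adjustment and trimmed-mean (TMM) scaling. The log2 fold change of Malat1 was 0.09 (SE 0.17, 95% interval -0.28 to 0.45, adjusted p = 0.791) for both clones averaged against 4T1 WT, in a comparison that called 11.7% of all genes. It was -0.01 (SE 0.20, adjusted p = 0.990) for Snord67KO-1, where 18.7% of genes were called, and 0.18 (SE 0.20, adjusted p = 0.688) for Snord67KO-2, where 3.01% were called. Between the clones it was 0.19 (interval -0.23 to 0.61, adjusted p = 0.689), with 3.83% of genes called. Malat1 therefore passed the threshold in none of the 4 comparisons.

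Neat1 did not pass the threshold in these tests either. Its log2 fold change was -0.04 (SE 0.19, interval -0.45 to 0.37, adjusted p = 0.916) for the average of both clones, -0.38 (SE 0.22, adjusted p = 0.256) for Snord67KO-1 and 0.30 (SE 0.23, adjusted p = 0.515) for Snord67KO-2 against 4T1 WT. Snord67KO-2 was higher than Snord67KO-1 by 0.69 (SE 0.23, interval 0.20 to 1.17, adjusted p = 0.108).

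With the marked positions left out, 5504 genes were tested by the same edgeR method. Neat1 was then higher in Snord67KO-2 than in 4T1 WT by 0.65 on the log2 scale (SE 0.18, interval 0.28 to 1.02, adjusted p = 0.0404), where 4.25% of genes were called, and higher than in Snord67KO-1 by 0.78 (SE 0.18, interval 0.41 to 1.15, adjusted p = 0.0109), where 6.85% were called. In Snord67KO-1 it was -0.13 (SE 0.17, adjusted p = 0.653), in a comparison with 21.6% of genes called, and the average of both clones was 0.26 (adjusted p = 0.268), with 12.6% called. The difference from 4T1 WT was not called by DESeq2 (adjusted p = 0.129), with scaling by total counts alone (0.208), or without any 1 of the 9 libraries (0.0507 to 0.188). The difference between the clones was not called by DESeq2 (0.0602), by total counts alone (0.199), or without Snord67KO-1 replicate 1 (0.0763), Snord67KO-2 replicate 2 (0.0671) or Snord67KO-2 replicate 3 (0.0596). Malat1 remained uncalled without marked positions, with a log2 fold change of 0.04 over both clones, -0.04 in Snord67KO-1, 0.12 in Snord67KO-2 and 0.17 between the clones. In bulk samples such as these, fewer cells with an RNA and less of it per cell cannot be told apart.

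**Figure D3:**
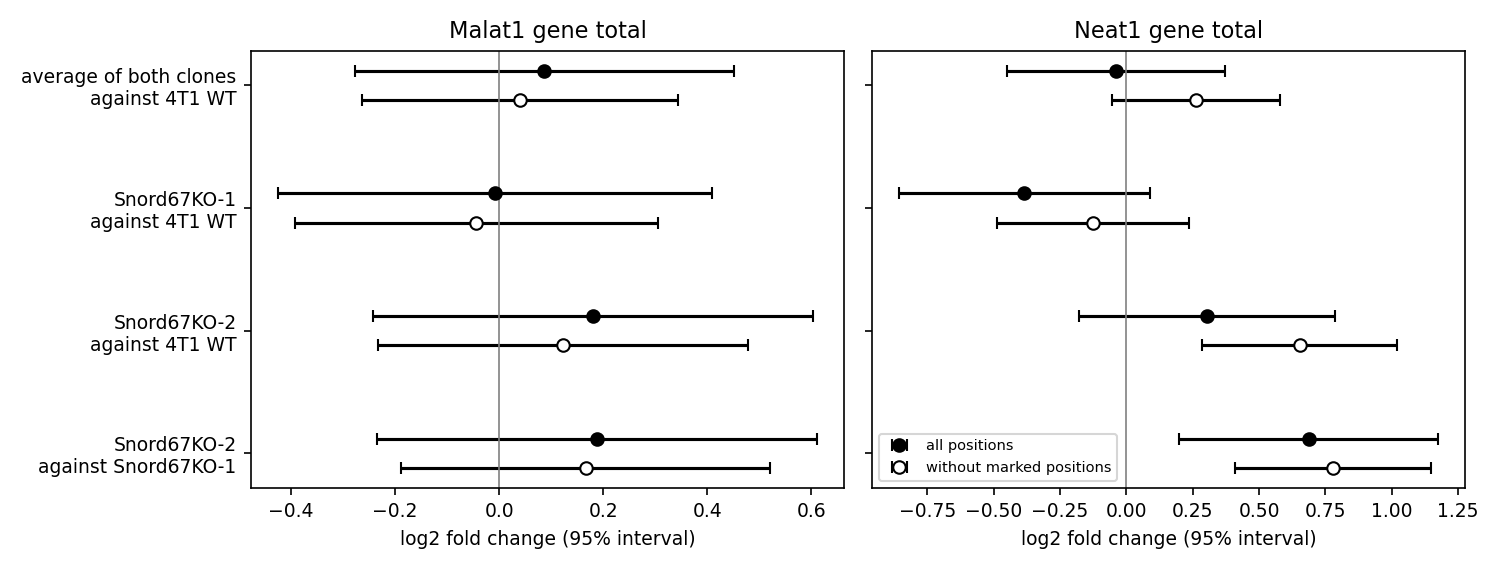
Log2 fold change (horizontal axis) of Malat1 (left) and Neat1 (right) in 4 comparisons, with 95% intervals from the edgeR fit, over all positions (filled) and without marked positions (open). Each Malat1 interval crosses 0, whereas the Neat1 intervals of Snord67KO-2 without marked positions run from 0.28 to 1.02 against 4T1 WT and from 0.41 to 1.15 against Snord67KO-1.

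Counts were spread along the whole of Malat1 and were concentrated at the 5′ end of Neat1. In Neat1, 819 of the 911 unmarked counts lay in the first 3200 bases, which contain the short isoform, and 818 lay within Neat1-202 itself. The share of all Neat1 counts in the first 3200 bases was 86.2%, 91.7% and 92.1% in 4T1 WT, 94.96%, 88.5% and 92.9% in Snord67KO-1, and 91.3%, 97.9% and 94.0% in Snord67KO-2, so the groups overlapped. The knockout mean was 3.25 percentage points above that of 4T1 WT (exact permutation test, p = 0.214, adjusted p = 0.327). Without marked positions the difference was 6.79 points, from 85.5% in 4T1 WT to 92.3% in the knockouts (exact permutation test, p = 0.0714, unadjusted). Per kilobase, the unmarked level in this segment was 42.4 ± 6.05 CPM in 4T1 WT, 50.2 ± 7.06 in Snord67KO-1, as against 72.8 ± 12.9 for Snord67KO-2 (SD, n = 3 each). The denominator again included marked counts, which lowered the 4T1 WT level more than that of Snord67KO-2. Beyond base 3200, the part found only in the long isoform, the level was 1.36 ± 0.642, 0.936 ± 0.409 and 0.819 ± 0.442 CPM per kb in the same order. Over the whole of Malat1 the unmarked level was 76.5 ± 4.06, 90.2 ± 11.1 and 82.5 ± 5.70 CPM per kb. Per kilobase, Malat1 and the first 3200 bases of Neat1 were thus closest in Snord67KO-2. No 500-base window beyond base 3500 held more than 10 unmarked counts over the 9 libraries. A difference between genotypes in the long isoform was not detectable at this depth, since a library held between 2 and 24 unmarked counts there.

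In Malat1 the unmarked level was highest in the first 500 bases, at 157 ± 9.52 CPM per kb in 4T1 WT, 159 ± 31.3 in Snord67KO-1, while Snord67KO-2 had 153 ± 34.9. It was lowest between base 6501 and the 3′ end, at 19.8 ± 3.18, 19.8 ± 2.59 and 34.7 ± 13.9 CPM per kb. The last position with a row lay 102 bases before the annotated 3′ end. The share of Malat1 counts in the more 3′ of its 2 equal parts was 41.7%, 34.4% and 41.7% in 4T1 WT, 42.1%, 46.9% and 41.0% in Snord67KO-1, and 44.5%, 45.1% and 41.4% in Snord67KO-2. The lowest value belonged to replicate 2 of 4T1 WT, and the other 8 libraries lay between 41.0% and 46.9%. The knockout mean was 4.26 points higher (exact permutation test, p = 0.167, adjusted p = 0.327), and 3.17 points higher without marked positions (exact permutation test, p = 0.119, unadjusted). Over the last 2000 bases alone the difference was 3.15 points (p = 0.0476 by the same exact test, unadjusted), with 18.3%, 13.4% and 15.6% in 4T1 WT and 16.0% to 22.0% in the knockouts.

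**Figure D4:**
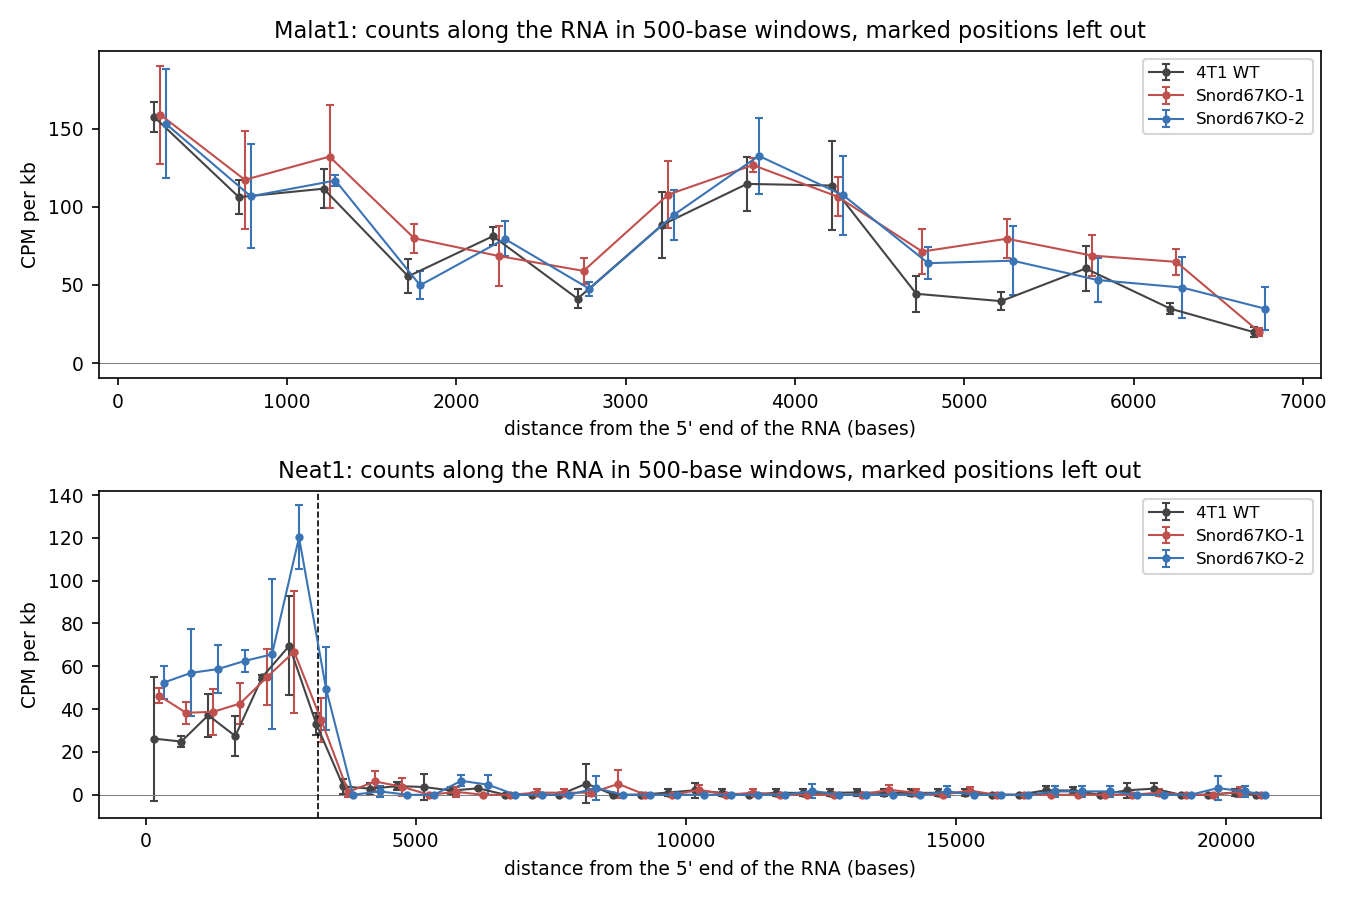
Unmarked counts in 500-base windows along Malat1 (top) and Neat1 (bottom), as CPM per kb, by genotype, with SD over 3 libraries; the horizontal axis is the distance from the 5′ end and the dashed line in the lower panel marks base 3200. Malat1 was covered over its length, with its highest level in the first window, and Neat1 fell to a few CPM per kb beyond the dashed line. The CPM divide by all counts of a library, marked ones included.

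The log2 ratio of Malat1 to Neat1 counts was 1.24, 0.80 and 2.02 in 4T1 WT, 1.56, 1.63 and 1.83 in Snord67KO-1, and 1.37, 1.16 and 1.04 in Snord67KO-2. The knockout mean exceeded that of 4T1 WT by 0.08 (exact permutation test, p = 0.833, adjusted p = 0.833). Without marked positions the ratio was 1.42, 1.74 and 2.11 in 4T1 WT, 1.76, 1.87 and 1.86 in Snord67KO-1, and 1.40, 1.19 and 1.11 in Snord67KO-2. The Snord67KO-2 libraries were then below all others, and the exact test of Snord67KO-2 against Snord67KO-1 gave p = 0.1, the smallest that 3 against 3 libraries allow.

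At the level of single nucleotides the counts were sparse. Of the 2383 unmarked Malat1 positions, 1929 had a count in at least 1 library. Of these, 1349 (69.9%) had exactly 1 count over all 9 libraries, 21 had 5 or more, and the highest total was 15. Neat1 had 703 unmarked positions with a count, of which 550 (78.2%) had exactly 1 and 5 had 5 or more, with a highest total of 6. Only 5 unmarked Malat1 positions and 1 unmarked Neat1 position had a count in all 3 libraries of 4T1 WT.

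The Nm score of a position is its count divided by the mean of its 2 neighbors, with 0 set to 1, and a 2′-O-methylated nucleotide is expected to stand above its neighbors. Averaged over the 9 libraries, 2 Malat1 positions and 3 Neat1 positions had a score of 2 or more, and all 5 were marked. The highest was Neat1-2035, with a mean score of 20.8. Its score was 16, 124 and 6 in 4T1 WT, 18, 16 and 1 in Snord67KO-1, and 1, 1 and 4 in Snord67KO-2. Malat1-5873 followed with a mean of 5.78, Malat1-3311 with 4.88, Neat1-3063 with 2.44 and Neat1-1360 with 2.11. No unmarked position reached a mean score of 2 over the 9 libraries, and Malat1-843 came closest with 1.89. In 4T1 WT alone, 3 unmarked Malat1 and 2 unmarked Neat1 positions had a mean score of 2 or more, and 0 did in either clone. The same share over the positions of all genes was not computed. Where both neighbors have at most 1 count, the score equals the count, with 0 set to 1, and so it follows depth. The 4T1 WT libraries held 625093 to 737219 counts, those of Snord67KO-1 491836 to 686776 and those of Snord67KO-2 212463 to 423278. The part of depth in this difference was not tested. Malat1-843 scored 3 in each 4T1 WT library, with a mean of 1.67 in Snord67KO-1 and 1.00 in Snord67KO-2. These scores rest on a few counts per library, and no unmarked position had enough counts for a test.

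**Figure D5:**
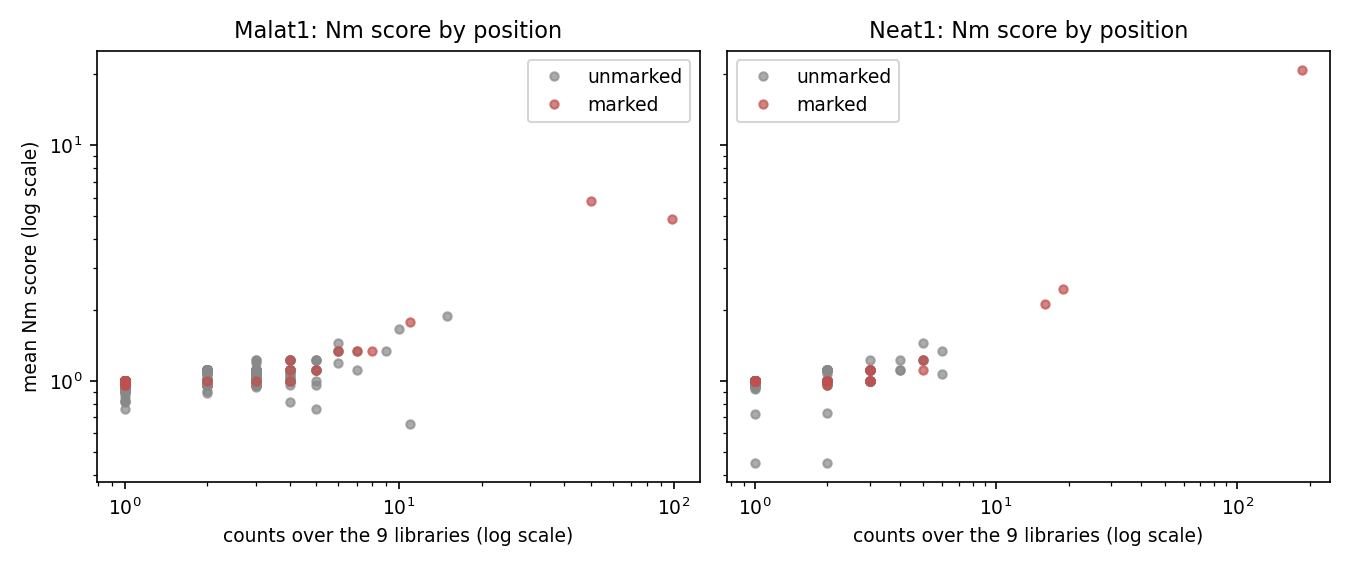
Mean Nm score over the 9 libraries (vertical, log scale) against the total count of a position (horizontal, log scale) for Malat1 (left) and Neat1 (right), with marked positions in red and unmarked positions in gray. Every position with a mean score of 2 or more is red, and Neat1-2035 stands highest at 20.8 with 186 counts.

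The most counted positions of both RNAs show how these values arose. Malat1-3311 had 12, 71 and 1 counts in 4T1 WT, 2, 11 and 0 in Snord67KO-1, and 0, 0 and 2 in Snord67KO-2. Replicate 2 of 4T1 WT thus held 71 of its 99 counts, and the unmarked neighbor Malat1-3310, inside the same run of T, had 10 of its 11 counts in that library. Malat1-5873 had 7, 12 and 5 counts in 4T1 WT, 8, 12 and 0 in Snord67KO-1, and 0, 3 and 3 in Snord67KO-2, without a comparable peak in 1 library.

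Neat1-2035 had 16, 124 and 6 counts in 4T1 WT, 18, 16 and 1 in Snord67KO-1, and 0, 1 and 4 in Snord67KO-2. It held 186 of the 262 marked Neat1 counts (71.0%), and 124 of those 186 came from replicate 2 of 4T1 WT. A library with 0 counts here allows up to 3 counts, or 14.1 CPM in the shallowest library, so its low values in Snord67KO-2 are bounded by depth. Neat1-3063 had 19 counts in all, 12 of them in 4T1 WT, and Neat1-1360 had 16, of which 9 lay in replicate 2 of 4T1 WT. The unmarked Malat1-843 had 3 counts in each 4T1 WT library, 1, 2 and 2 in Snord67KO-1, and 0, 1 and 0 in Snord67KO-2.

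Only Malat1-3311 and Neat1-2035 had at least 10 counts in 3 libraries, the minimum for a test of a position, and both are marked. By count, edgeR's quasi-likelihood test over 2092 positions of all genes called neither, while 0.0478% of all positions were called in each of the 3 comparisons with 4T1 WT. For the average of both clones, the log2 fold change was -2.90 (SE 1.17, adjusted p = 0.471) at Malat1-3311 and -2.41 (SE 0.941, adjusted p = 0.466) at Neat1-2035. With the remaining counts of the same RNA as the reference, edgeR gave -3.50 (SE 1.26) and -3.09 (SE 0.990), both with an adjusted p of 0.266, over 2051 positions of which 0% were called in each comparison (361 had an unadjusted p under 0.05 for the average). By Nm score, limma gave -1.52 (SE 0.982, adjusted p = 0.517) and -2.82 (SE 1.18, adjusted p = 0.368), with 0% of positions called in each comparison (275 had an unadjusted p under 0.05 for the average). At an unadjusted p under 0.05, both positions passed by count and against their own RNA, and Neat1-2035 alone passed by Nm score. DESeq2 by count gave both an adjusted p of 0.995 in Snord67KO-1 and no adjusted p for the average or for Snord67KO-2. These values depended on replicate 2 of 4T1 WT. Without it, Neat1-2035 stood at -0.41 by count (SE 0.897, adjusted p = 0.949), at -0.98 against its own RNA and at -1.60 by Nm score for the average, and at 0.62 by count in Snord67KO-1, and Malat1-3311 no longer had enough counts. These lower values in the clones moved together with the share at marked positions over all genes, and the part of that share in them was not tested.

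Fragments of both RNAs ended more often on A, and less often on G, than the makeup of the RNA. At unmarked positions, 37.6% of Malat1 counts ended on A, which makes up 28.6% of the RNA, and 14.9% ended on G, which makes up 25.4%. In Neat1, 36.0% ended on A and 15.7% on G, against 22.9% and 30.7% of its first 3200 bases. All genes together gave 34.3% A and 15.8% G at the counted base, against 26.1% and 25.3% of their transcripts. In Malat1, the base 2 before the counted one was A in 42.7% of counts. The share of A at the counted base of Malat1 ran from 30.9% to 42.2% over the 4T1 WT libraries, 37.9% to 39.6% in Snord67KO-1 and 34.8% to 36.2% in Snord67KO-2, so that both clones lay within the 4T1 WT range. In Neat1 it ran from 29.3% to 36.6% in 4T1 WT, 37.5% to 43.8% in Snord67KO-1 and 32.0% to 39.6% in Snord67KO-2, so that Snord67KO-1 lay above 4T1 WT. This difference was not tested.

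Snord67 pairs with U6 around C60, and the 8 letters of U6 from position 57 to 64, TGGCCCCT, occur once in each RNA on the transcribed strand. They were found in 1 of 6 windows of 1000 bases in Malat1, 1 of 20 in Neat1, and 2.73% of all such windows in the longest transcripts of the genes in the table. Both matches are shown, with these letters in capitals, because they carry the letters around the U6 nucleotide that Snord67 targets.

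Malat1, from base 3949: tttgcagcTGGCCCCTcttaggca
Neat1, from base 1885: agtggttcTGGCCCCTtttgttca

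The nucleotide that corresponds to C60 lay at chr19:5798721 in Malat1 and chr19:5843591 in Neat1. Neither position had a row in the table. Within 5 bases on either side, Malat1 had 2 counts over the 9 libraries and Neat1 had 0. A match of letters is a description and not a site, and a 2′-O-methylation difference at either nucleotide was not detectable at this depth.

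Proteins that share the nuclear bodies of these RNAs were examined through their own mRNAs in the same libraries. Among 20 nuclear speckle genes, all tested, 4 fell and 0 rose for the average of both clones, where 374 of 6535 genes fell and 393 rose. Those that fell were Son, the large scaffold protein of the speckle, by 1.27 on the log2 scale (SE 0.18, adjusted p = 0.000452), Srrm2, a second scaffold protein, by 0.87 (SE 0.18, adjusted p = 0.00630), the splicing kinase Prpf4b by 0.95 (SE 0.27, adjusted p = 0.0353) and Pnn by 0.77 (SE 0.24, adjusted p = 0.0465). Son had 229, 343 and 161 counts in 4T1 WT, 97, 64 and 66 in Snord67KO-1, and 31, 56 and 89 in Snord67KO-2. The median log2 fold change of the list was -0.10, beside -0.04 over all genes tested. In Snord67KO-1, Son, Srrm2 and Prpf4b fell, where 529 of 6535 genes fell. In Snord67KO-2, Son and Srrm2 fell, where 51 of 6535 genes fell and 146 rose. The splicing factor Srsf6 rose in that clone by 1.00 (SE 0.24, adjusted p = 0.0307). Without marked positions 4 of 19 tested fell for the average, where 12.6% of genes were called in either direction. In Snord67KO-1 5 of the list then fell, where 21.6% were called in either direction, and none fell in Snord67KO-2, where 4.25% were called. These shares cover both directions, so they do not give the share of all genes that fell.

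Of 20 paraspeckle genes 16 were tested, and 1 fell for the average of both clones, Taf15, an RNA-binding protein (log2 fold change -0.81, SE 0.22, adjusted p = 0.0278). None rose. Over all genes 374 of 6535 fell, a share close to that of the list. Hnrnph1 (-0.19, adjusted p = 0.570), Hnrnpk (0.16, adjusted p = 0.608) and Nono (0.38, adjusted p = 0.231), the most counted members, did not pass in the edgeR test. The median of the list was -0.07 over both clones, -0.07 in Snord67KO-1 and 0.08 in Snord67KO-2.

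Of 13 genes linked to the 3′ end of Malat1, which encode RNase P subunits, the tRNA 3′ processing enzyme Elac2 and the triple helix binding protein Mettl16, 5 had enough counts. The RNase P protein Rpp14 fell by 1.54 (SE 0.32, adjusted p = 0.00704) for the average in the edgeR fit. Mettl16 stood at -0.85 (adjusted p = 0.128) and Pop1 at 0.14 (adjusted p = 0.833). For the average, 374 of 6535 genes fell and 393 rose, and in Snord67KO-1 529 fell, so the counts in these short lists are given as descriptions. Among 7 of 19 other long noncoding RNAs that could be tested, Firre (-1.58, adjusted p = 0.0284) and Pvt1 (-0.70, adjusted p = 0.0490) fell for the average of both clones. Gas5 (-0.75, adjusted p = 0.0172) and Snhg1 (-0.91, adjusted p = 0.0130), both hosts of small nucleolar RNAs, fell in Snord67KO-1, and without marked positions they also fell for the average (-0.62, adjusted p = 0.00672, and -0.51, adjusted p = 0.0490). Snhg1 was higher in Snord67KO-2 than in Snord67KO-1 by 1.11 (adjusted p = 0.0198). Firre had 293 of its 673 counts in replicate 2 of 4T1 WT, and without marked positions it was at -0.53 (adjusted p = 0.340). Of 8 tested genes among 18 that lie near Malat1 and Neat1, Ltbp3, a binding protein of latent TGF-beta, rose by 1.23 (SE 0.26, adjusted p = 0.00704) and Rela (-0.35) and Dpf2 (-0.77) did not pass. Ltbp3 was also called in Snord67KO-1 (1.08), where 695 of 6535 genes rose, and in Snord67KO-2 (1.39), where 146 rose. It was called with marked positions left out as well.

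The libraries carried the genes of 4T1 carcinoma cells. Krt8 and Krt18, keratins of simple epithelia, Epcam, Cdh1, Vim and Fn1 were all detected, whereas Ptprc, Cd3e, Lyz2, Pecam1, Adipoq and Alb, markers of blood, vessel, fat and liver cells, had 40 counts together over the 9 libraries. Against 4T1 WT, Vim, an intermediate filament gene of mesenchymal cells, rose by 2.76 (SE 0.23, adjusted p = 1.33e-06) in Snord67KO-1 and by 1.06 (SE 0.22, adjusted p = 0.0163) in Snord67KO-2. Fn1 rose by 1.33 and 1.28, and Krt8 by 1.85 (adjusted p = 0.000202) and 1.41 (adjusted p = 0.00838). Krt18 rose by 1.45 in Snord67KO-1 (adjusted p = 0.00240) and stood at 1.00 in Snord67KO-2 (adjusted p = 0.0739). Epcam stood at -1.01 (adjusted p = 0.0499) and 1.25 (adjusted p = 0.0392), and Cdh1 at -1.07 (adjusted p = 0.00511) and -0.06 (adjusted p = 0.929). Epcam was higher in Snord67KO-2 than in Snord67KO-1 by 2.26 (SE 0.34, adjusted p = 0.00148), as was Cdh1 by 1.01 (adjusted p = 0.0336). Krt8 (-0.45, adjusted p = 0.363), Krt18 (-0.45, adjusted p = 0.438), Krt19 (0.54, adjusted p = 0.583) and Fn1 (-0.05, adjusted p = 0.934) did not pass between the clones. No row of the table carried the name Snord67, so the deletion could not be checked in these counts.

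Among 549 genes with at least 20 counts in every library, the log2 CPM of Malat1 followed that of Rpl39 most closely (Pearson's r = 0.910 over 9 libraries), then Canx (0.879), Rtn4 (0.863), Serinc1 (0.858) and Spag9 (0.847). Neat1 followed Iqgap1 (0.881), Flna (0.878), Map4 (0.872), 9330111N05Rik (0.863) and Tulp4 (0.851). Malat1 and Neat1 gave r = 0.357 with each other. These are descriptions over 9 libraries of 3 genotypes that share library depth and the share at marked positions.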

How the data were processed

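RibOxi-seq libraries were prepared by the authors from poly(A) RNA of 4T1 WT, Snord67KO-1 and Snord67KO-2 cells. The deposited table gives, for each position of the genome, the raw counts of reads whose 3′ end lies there, with a gene name and a mispriming mark. Per the labels, the processing named cutadapt, STAR and mm10, with no versions. The strand is not given in the table. The 9 oxidized libraries held 212463 to 737219 counts, and PCR copies were not marked, so the limits given for a count of 0 (3 counts) cover counting error only. Counts were summed per gene and tested with edgeR 4.0.16 (quasi-likelihood, TMM, filterByExpr) in R 4.3.3 over all 9 libraries, with an adjusted p threshold of 0.05. Positions needed 10 counts in 3 libraries and were tested by edgeR and, for Nm scores, by limma 3.58.1. Shares were compared by two-sided exact permutation tests in scipy 1.17.1, whose smallest p is 0.0238 for 3 against 6 libraries and 0.1 for 3 against 3. Sequences came from GENCODE M21 on GRCm38, whose coordinates are those of mm10. The code was tested on simulated data. The replicates are separate samples of 1 line or clone each, and p-values measure the spread between them. Alternatives were DESeq2 1.42.0, other scaling, filters and scores, a replicate block, and leaving out marked positions, the top position, Rn45s or each library.

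Named positions were the 6 with most counts in each RNA, the 4 with the highest mean Nm score among those with at least 10 counts, the 3 marked ones with most counts, and any that passed a test or had the smallest p. Named genes were list members that passed a test or were among the 3 most counted of a list, and the 5 genes most like each RNA. The members and lists were chosen with earlier results of these data known.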

Additional observations from a re-analysis of the deposited data

Results flagged for a closer look

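Neat1 stood out between the clones in some settings. Without marked positions, its level in Snord67KO-2 was higher than in Snord67KO-1 by 0.78 on the log2 scale (edgeR's quasi-likelihood test, adjusted p = 0.0109), and all 3 Snord67KO-2 libraries lay above all 3 of Snord67KO-1. In that comparison 6.85% of genes were called, and the share of all genes whose libraries separate in this way was not computed. Without only the position with most counts, Neat1-2035, the difference was 0.81 (adjusted p = 0.0357). Over all positions it was not called (0.69, adjusted p = 0.108), and the call without marked positions was lost under DESeq2 (0.0602), with total-count scaling (0.199) and in 3 of 9 fits that left out 1 library. Among 20 quantities examined for a library far from the others of the 6 knockout libraries, 0 were found.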

How the results depend on the processing

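Settings that left out marked positions together with another change were chosen after seeing the data. Without marked positions, the edgeR log2 fold change of Neat1 turned to 0.26 for the average of both clones (0.32 without its top position), and passed at 0.65 for Snord67KO-2 and 0.78 between the clones (0.81 without the top position). The calls without marked positions were lost under DESeq2 (0.64 and 0.76) and total-count scaling (0.54 and 0.46), and the cause was not tested. Malat1 turned sign near 0 without a filter on low counts (-0.00138 for the average) and, for Snord67KO-1, under DESeq2 (0.00022), total counts (0.13), without Rn45s (0.0027) and without the top position (0.0612). Total-count scaling also turned Malat1 to -0.0232 in Snord67KO-2 and -0.15 between the clones and, without marked positions, to 0.17 in Snord67KO-1 and -0.16 between the clones, and Neat1 to 0.0779 in Snord67KO-1. It moved the median of all genes to 0.10 in Snord67KO-1, -0.23 in Snord67KO-2 and -0.35 between the clones.

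Leaving out 1 library at a time gave, for the average of both clones, -0.00364 to 0.19 for Malat1 (-0.0456 to 0.13 without marked positions) and -0.24 to 0.17 for Neat1. For Snord67KO-1, Malat1 ran from -0.13 to 0.10 (-0.14 to 0.0640 without marked positions). Neat1 without marked positions ran from 0.58 to 0.76 in Snord67KO-2, where the call was lost in 9 of 9 cases, and from 0.69 to 0.84 between the clones, where it was lost in 3. Over all positions the difference between the clones ran from 0.63 to 0.75 and was called without 4T1 WT replicate 2 (0.72, adjusted p = 0.0152). The log2 ratio of Malat1 to Neat1 ran from -0.19 to 0.41 and was -0.23 without marked positions. The share of Malat1 in its last 2000 bases differed by 3.15 points (exact permutation p = 0.0476).

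Whether the replicate numbers pair the libraries could not be told. Same-numbered libraries gave correlations of -0.13 to 0.33 in their deviations, and differently numbered ones -0.36 to 0.17. The highest values, 0.33 and 0.26, were between same-numbered libraries of 4T1 WT and Snord67KO-1. With the replicate block, Neat1 was 0.69 between the clones over all positions (adjusted p = 0.101), and without marked positions 0.65 in Snord67KO-2 (0.0496) and 0.78 between the clones (0.0143), so no call changed.

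The number of genes called was 767 for the average, 1224 for Snord67KO-1, 197 for Snord67KO-2 and 250 between the clones, against 406, 642, 130 and 110 by DESeq2, 332, 755, 35 and 228 by total counts, and 1077, 2057, 436 and 462 without a filter. No position of either RNA was called in any of the 215 position settings with a value. DESeq2 gave no adjusted p for the tested positions of either RNA for the average or for Snord67KO-2. No position of either RNA reached the test without marked positions, and none of Malat1 did without 4T1 WT replicate 1 or 2 or Snord67KO-1 replicate 2.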
